A study of Mus musculus with 8 samples.

Results

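The striatum, the main input nucleus of the basal ganglia, is built largely of GABAergic projection neurons that receive dopamine from the midbrain. They fall into a direct pathway class, which expresses the dopamine receptor gene Drd1, and an indirect pathway class, which expresses Drd2 together with the adenosine receptor gene Adora2a. The receptors act on the same second messenger in opposite directions: the D1 receptor and the adenosine receptor raise cyclic AMP through a stimulatory G protein, and the D2 receptor lowers it. In both classes the phosphoprotein DARPP-32 carries this signal to protein phosphatase 1.

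Described here are 9 genes that mark these neurons, taken by symbol as genes known for their expression there, with earlier results of these data known: Drd1, Drd2, Adora2a, Ppp1r1b, Rgs9, Rasd2, Gpr6, Rarb and Meis2. All 9 were among the 22430 genes of the count table and all 9 passed the filter on low counts, as did 16730 genes in all. The libraries were made from polyadenylated RNA of brain hemispheres of male C57Bl/6JRj mice, 4 of them young adult (age 6 months, 6m) and 4 aged (24 months, 24m), with no treatment or genetic change in either group. A hemisphere holds many other cells besides striatal neurons, and in such bulk RNA fewer cells of a type and less RNA per cell cannot be told apart.

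Total counts per library ran from 63460940 to 103462414, with the deepest library being 24m replicate 1. That library also lay apart from the other aged ones. On the second principal component, which held 9.11% of the variance, it scored 22.29 against -10.69 to 1.40 for the other 24m libraries, and its mean Spearman rho was 0.979 with the other 24m libraries and 0.978 with the 6m libraries. Values without it are given wherever they change the call of a member. Between ages, 43.6% of all genes tested were called, 25.3% higher and 18.3% lower at 24m. Called here means a log2 fold change (log2FC) of at least 0.58 in size and an adjusted p (padj, Benjamini-Hochberg over all genes tested) of at most 0.05 in edgeR's quasi-likelihood test. Levels are given as counts per 1e+06 (CPM) scaled by trimmed means of M values (TMM).

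Values of single libraries are listed below in the order of replicates 1 to 4. Of the 9 striatal genes, 3 were called higher at 24m and none lower. Drd1 rose 3.54-fold, Rarb 1.92-fold and Rasd2 1.57-fold, while Drd2, Adora2a, Ppp1r1b, Gpr6 and Meis2 did not pass the test and Rgs9 passed on padj but not on size of change. The called share of 33.3% stood beside a background of 25.3% of genes called higher, and 0 called lower beside 18.3%. In the same 3 genes all 24m libraries lay above all 6m libraries, which was so for 28.4% of all genes, and in Rgs9 all 24m libraries lay below, as in 26.8%. The median log2FC was 0.13 over the 9 genes and 0.00 over all genes tested. It was 0.07 to 0.22 with single libraries left out (lowest without 6m replicate 1, highest without 6m replicate 4), 0.29 with the GC trend removed, 0.37 with the length trend removed (all genes 0.02) and 0.36 with library totals (all genes 0.21). These shares lie near the background and are no result about the 9 genes as a group.

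**Figure D1:**
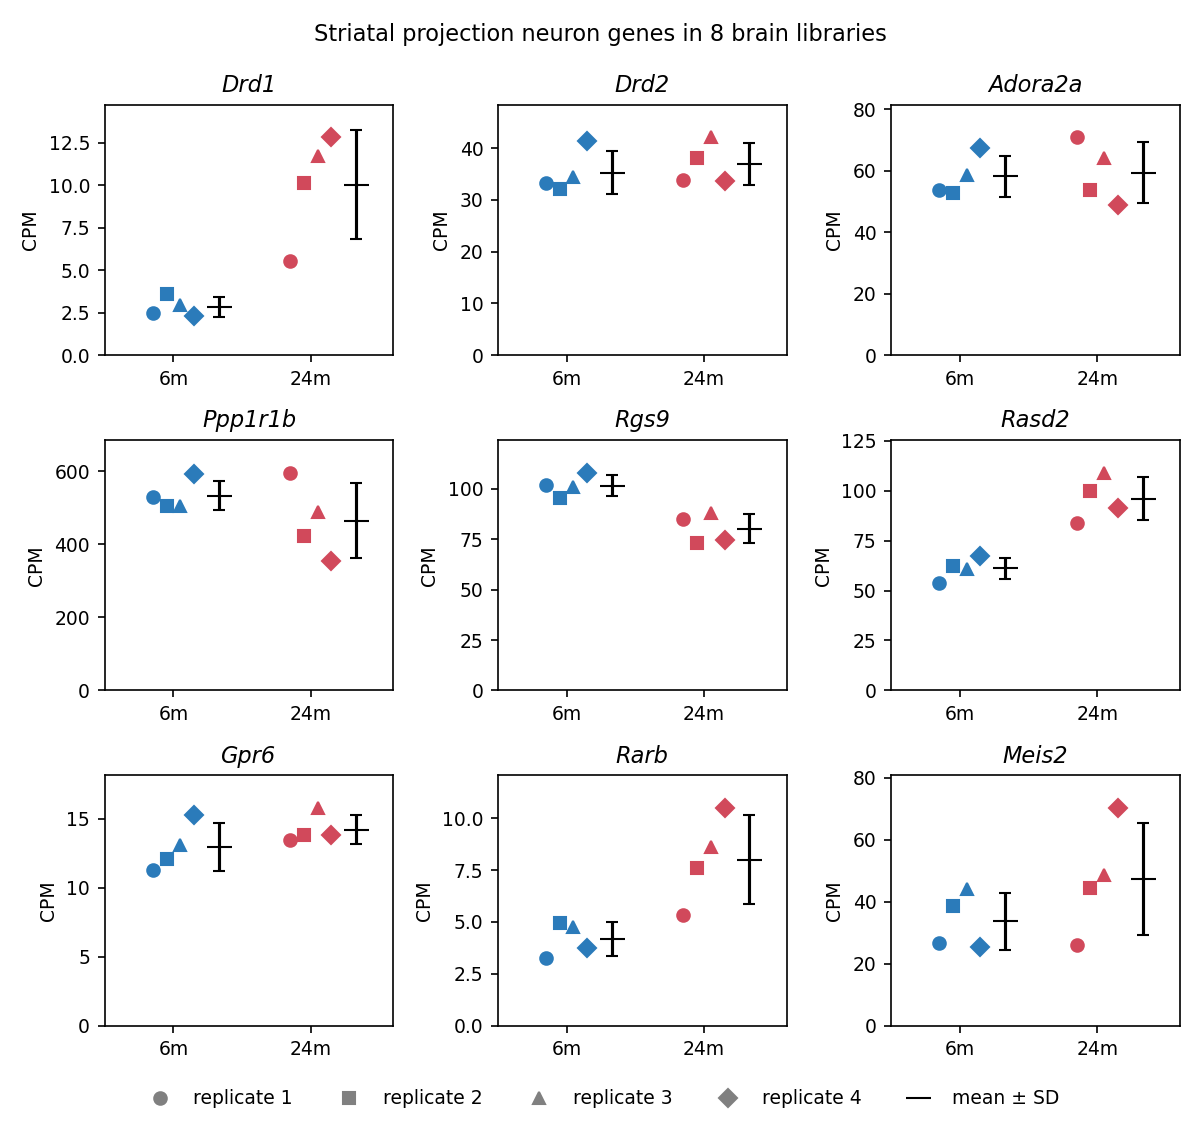
CPM (linear axes from 0, 1 panel per gene) in the 4 libraries of 6m (blue) and the 4 of 24m (red); symbols give the replicate number, and bars the mean ± SD over 4 libraries. Drd1, Rasd2 and Rarb show no overlap between ages with 24m above, Rgs9 no overlap with 24m below, and the other 5 genes overlap.

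Drd1 encodes the dopamine receptor that marks direct pathway neurons (ENSMUSG00000021478; GRCm39 chromosome 13, 54204872 to 54209760, minus strand). It had 162, 255, 179 and 151 counts at 6m and 571, 813, 974 and 1116 counts at 24m. As levels these were 2.47, 3.61, 2.97 and 2.28 CPM at 6m and 5.51, 10.1, 11.7 and 12.8 CPM at 24m. The lowest aged library, 24m replicate 1, still exceeded the highest young one. The log2FC of Drd1 was 1.82 ± 0.26 (SE; edgeR padj = 0.000353), with a 95% interval of 1.24 to 2.41, and 95.7% of all genes tested had a log2FC no higher than this. Without 24m replicate 1 it was 2.04. No annotated gene overlaps Drd1.

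Drd2 encodes the dopamine receptor of the indirect pathway (ENSMUSG00000032259; chromosome 9, 49251654 to 49319477, plus strand). Its levels were 33.3, 32.1, 34.4 and 41.4 CPM at 6m and 33.8, 38.1, 42.1 and 33.7 CPM at 24m. The ages overlapped almost fully, and the highest value of each age differed by less than 1 SD. The log2FC was 0.07 (95% interval -0.18 to 0.32; edgeR padj = 0.627). Drd2 was at 0.37 with the trend of counts over gene length removed (padj = 0.0201), 0.29 with library totals (padj = 0.0436) and 0.28 with the GC trend removed (padj = 0.0495), each under the size threshold.

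Adora2a encodes an adenosine receptor that shares the indirect pathway neurons with the D2 receptor (ENSMUSG00000020178; chromosome 10, 75152560 to 75170628, plus strand). It had 53.8, 52.6, 58.6 and 67.5 CPM at 6m and 70.8, 53.8, 64.0 and 48.8 CPM at 24m. Both the highest and the lowest of the 8 values came from aged brains. The log2FC was 0.03 (95% interval -0.27 to 0.32; edgeR padj = 0.856), and its sign changed when single libraries were left out. With the GC trend removed it was 0.25 (padj = 0.0307), under the size threshold.

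Gpr6, an orphan receptor gene of the indirect pathway class, spans 2332 bp (ENSMUSG00000046922; chromosome 10, 40945973 to 40948304, minus strand). Its levels were 11.3, 12.1, 13.1 and 15.3 CPM at 6m and 13.5, 13.8, 15.8 and 13.8 CPM at 24m. The aged values fell within the range of the young ones apart from the highest, replicate 3. The log2FC of 0.13 (95% interval -0.13 to 0.40; edgeR padj = 0.335) was within the spread of the libraries. With library totals it was 0.36 (edgeR padj = 0.0245) and with the GC trend removed 0.33 (padj = 0.0317), each under the size threshold. Gpr6 has the shortest exonic length of the 9 genes, 1809 bp, and it alone was called in addition when the trend of counts over gene length was removed from each library (log2FC 0.74, edgeR padj = 0.00148).

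Whether the receptors of both pathways changed unequally was asked within each library, where the ratio of 2 genes does not depend on how libraries are scaled to one another. The count of Drd1 was 7.41, 11.2, 8.64 and 5.52% of that of Drd2 in 6m replicates 1 to 4, and 16.3, 26.6, 27.8 and 37.9% at 24m. Each aged brain thus had a larger share of Drd1 than any young one. The mean log2 ratio was -3.65 ± 0.43 (SD) at 6m and -1.94 ± 0.50 at 24m, a difference of 1.71 or 3.28-fold (two-sided exact permutation p = 0.0286 over 70 assignments, the smallest that 4 against 4 libraries allow). Leaving out 1 library at a time gave differences of 1.53 to 1.94, and without 6m replicate 4 the exact p was 0.0571. The genes were chosen with earlier results of these data known. The exact p of 0.0286 was not adjusted together with those of the ratios to Ppp1r1b given below. Drd1 alone showed no overlap between ages, so the ratio adds no separate support.

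Ppp1r1b encodes DARPP-32, a phosphoprotein of both neuron classes (ENSMUSG00000061718; chromosome 11, 98239169 to 98248624, plus strand). It had 530, 505, 506 and 591 CPM at 6m and 596, 423, 488 and 353 CPM at 24m. One aged library, replicate 1, was above all young ones and the other 3 were below all young ones. The log2FC was -0.20 (95% interval -0.53 to 0.14; edgeR padj = 0.268). Without 24m replicate 1 it was -0.33 with edgeR padj = 0.0158, under the size threshold. Its sign turned with library totals alone (0.01), after quantile normalization (0.14) and with the GC trend removed (0.01). The same held with the length trend removed (0.06, or 0.05 with a replicate block added). Of the members this one had the highest count in every library, from 30493 to 61696.

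Rgs9 encodes a regulator of G protein signalling that shortens signalling by dopamine receptors in the striatum (ENSMUSG00000020599; chromosome 11, 109116158 to 109189025, minus strand). Its levels were 102, 95.5, 101 and 108 CPM at 6m and 85.1, 73.2, 88.1 and 74.8 CPM at 24m, with no overlap between ages. The log2FC of -0.34 ± 0.09 (SE; 95% interval -0.54 to -0.15) passed on padj (0.00691, edgeR) but not on size. With library totals alone it was -0.12 (padj = 0.147); that scaling moved the median of all genes by 0.21.

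Rasd2 encodes Rhes, a small GTPase-like protein enriched in striatum (ENSMUSG00000034472; chromosome 8, 75940572 to 75950874, plus strand). It had 54.0, 62.3, 60.8 and 67.1 CPM at 6m and 83.8, 100, 109 and 91.3 CPM at 24m. All aged libraries exceeded all young ones. The log2FC was 0.65 ± 0.10 (SE; 95% interval 0.42 to 0.88; edgeR padj = 0.000598), and it was called in each of the alternatives run, with 0.59 to 0.88.

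Rarb encodes the retinoic acid receptor beta, a transcription factor of striatal neurons (ENSMUSG00000017491; chromosome 14, 5650540 to 6041094, plus strand). Levels were low, 3.25, 4.96, 4.74 and 3.74 CPM at 6m and 5.33, 7.6, 8.61 and 10.5 CPM at 24m. The aged library nearest to the young ones was replicate 1. The log2FC was 0.94 ± 0.22 (SE; 95% interval 0.45 to 1.43; edgeR padj = 0.00427), and it was called under each alternative run, with 0.59 to 1.17.

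Exons of the neighbouring gene Top2b, on the other strand, overlap Rarb, and Top2b had 44.1 CPM at 6m and 32.0 CPM at 24m, the opposite direction. The library kit kept strand, but whether featureCounts used strand is not given in the sources used here. Exons of other annotated genes on the opposite strand also overlap Drd2, Ppp1r1b, Rgs9 and Meis2, whereas none overlap Drd1, Adora2a, Rasd2 or Gpr6.

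Meis2 encodes a homeodomain protein of striatal and other forebrain neurons (ENSMUSG00000027210; chromosome 2, 115693062 to 115896341, minus strand). It had 26.8, 38.7, 44.2 and 25.3 CPM at 6m and 26.1, 44.3, 48.6 and 70.3 CPM at 24m. The aged libraries ranged from near the lowest young value to far above the highest. Its spread was the widest of the members within both ages, with coefficients of variation of 27.2% at 6m and 38.3% at 24m. The log2FC of 0.49 (95% interval -0.14 to 1.12) did not pass (edgeR padj = 0.157). Without 24m replicate 1 Meis2 was called higher, with 0.70 (padj = 0.0119), without 24m replicate 4 it was at 0.23 (padj = 0.444), and with the length trend removed the log2FC was 0.04 (padj = 0.879); its exonic length of 12967 bp is the longest of the 9.

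**Figure D2:**
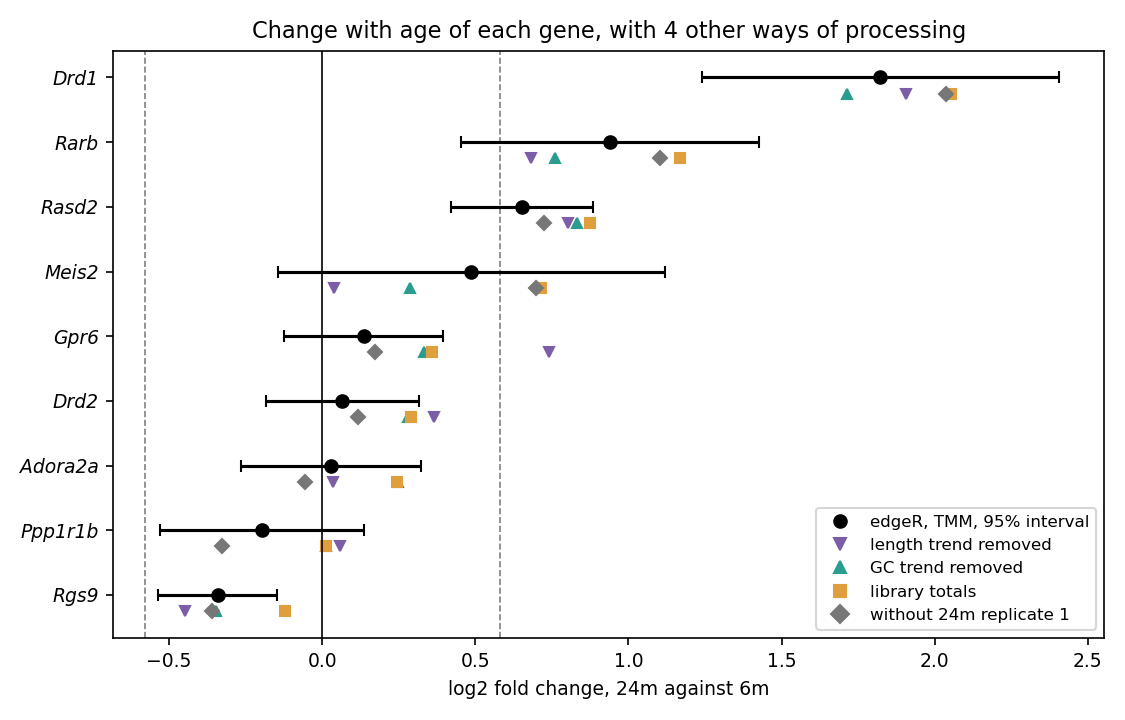
Log2 fold change of each gene at 24m against 6m. Black points and bars give edgeR with TMM scaling and its 95% interval; coloured symbols give the values with length trend removed, with GC trend removed, with library totals and without 24m replicate 1; dashed lines mark 0.58 in either direction. Drd1 stays between 1.71 and 2.05 in these 4 settings, while Gpr6 and Meis2 move across a dashed line.

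The promoters of 2 members hold response elements of the pathways these genes belong to, shown here because one lies before a gene called higher, Rarb, and the other before Gpr6, whose product signals through cyclic AMP. RefSeq promoters (GRCm38.p6, 250 bases before to 50 after a transcript start) were found for 7 of the 9 genes, 8 promoters in all. Capitals mark the match, read 5′ to 3′ on the strand of the gene.
Rarb promoter, chr14:16575507-16575534, minus strand: ggaaggGTTCACCGAAAGTTCActcgca
Gpr6 promoter, chr10:41072355-41072374, minus strand: agagccTGACGTCAccggac
The first is a direct repeat bound by retinoic acid receptors, searched on both strands as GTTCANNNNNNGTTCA, from base 52 to base 37 before the start. That pattern is found in 25 of 32851 promoters of the same length (0.0761%). Only this spelling of the repeat was searched. The share therefore does not tell how rare retinoic acid response elements are, and other spellings may be present in the other members' promoters. The second is the cyclic AMP response element TGACGTCA, from base 78 to base 71 before the start, which 1.79% of promoters hold. The motifs do not overlap one another, and neither pattern was found in the other members' windows. A match describes these letters and not binding in these brains.

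Compared per kilobase of exonic length, the genes differed in level by over 2 orders of magnitude. At 6m Ppp1r1b had 163 ± 12.4 CPM per kilobase (SD, n = 4), followed by Rgs9 with 15.6 ± 0.797, Rasd2 with 15.3 ± 1.35, Drd2 with 11.2 ± 1.33 and Adora2a with 11.1 ± 1.29. Below them were Gpr6 with 7.16 ± 0.961, Meis2 with 2.60 ± 0.709, Drd1 with 0.622 ± 0.130 and Rarb with 0.499 ± 0.0976 CPM per kilobase. The neighbours Rgs9 and Rasd2, Drd2 and Adora2a, and Drd1 and Rarb lay within 1 SD or overlapping libraries of each other.

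At 24m the order per kilobase changed in a single place. Rasd2, at 24.0 ± 2.72 CPM per kilobase, stood above Rgs9, at 12.3 ± 1.13, and the libraries of the pair no longer overlapped. Rgs9, Drd2 (11.7 ± 1.28) and Adora2a (11.3 ± 1.89) could not be ordered beyond their spread. Drd1 reached 2.20 ± 0.704 CPM per kilobase, between Meis2 at 3.65 ± 1.40, and Rarb at 0.958 ± 0.258, and its libraries overlapped those of both. Exonic lengths were unions over all annotated transcripts, so a gene with long alternative ends such as Meis2 is set low on this scale.

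Ratios to Ppp1r1b placed the other 8 genes on 1 scale within each library. Drd1 changed by 2.00 on the log2 scale relative to Ppp1r1b, Rarb by 1.14, Rasd2 by 0.87, Meis2 by 0.66, Gpr6 by 0.36, Drd2 by 0.29, Adora2a by 0.24 and Rgs9 by -0.12. In the Drd1, Rasd2 and Adora2a ratios no library of one age overlapped the other (two-sided exact permutation p = 0.0286 each), and adjusted over the 8 ratios these gave 0.0762, so none passed 0.05. Adora2a followed Ppp1r1b closely, with a log2 ratio of -3.20 ± 0.09 at 6m and -2.96 ± 0.09 at 24m (SD, n = 4). Without 24m replicate 1 the ratios of Drd1, Rarb, Rasd2, Gpr6, Drd2 and Adora2a passed, each with an adjusted exact p of 0.0381. With any other single library left out no ratio passed, with adjusted exact p of at least 0.0762. That replicate had the highest Ppp1r1b level of all libraries (596 CPM), and Ppp1r1b is the denominator of each ratio.

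**Figure D3:**
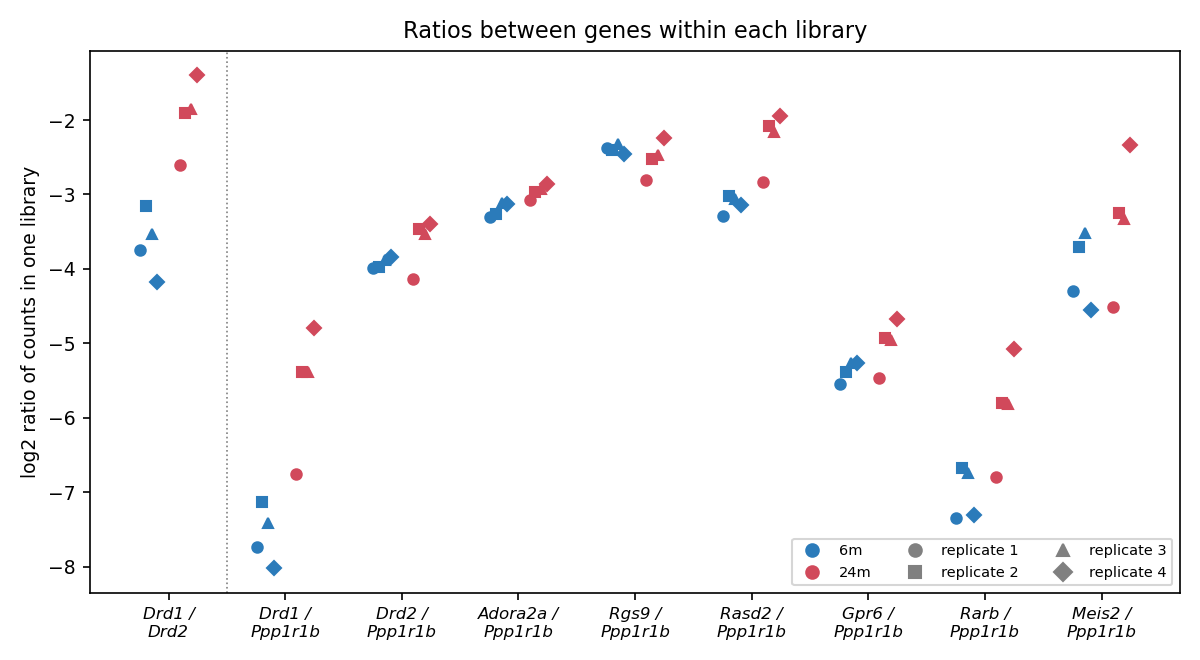
Log2 ratio of the counts of 2 genes in each library, for Drd1 against Drd2 (left of the dotted line) and for 8 genes against Ppp1r1b; blue is 6m, red is 24m, and symbols give the replicate number. The Drd1 to Drd2 ratio sits at -4.18 to -3.15 in 6m and at -2.61 to -1.40 in 24m, and 24m replicate 1 has the lowest ratio of its age in every column.

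Profiles were also compared as the root mean square difference of log2 CPM centred on each gene's mean over the 8 libraries. Among the 9 genes Drd2 and Gpr6, both of the indirect pathway, were the most alike pair, with 0.078, followed by Adora2a and Ppp1r1b with 0.145. Drd1 was nearest to Rarb, with 0.451, and differed from Ppp1r1b and Rgs9 by 1.14 each. Over all genes with at least 1 CPM, those nearest to Drd1 were Adam19 (0.078), Selenoi (0.090) and Dipk2a (0.104). Litaf (0.045), Zdhhc14 (0.066) and Rnf26 (0.066) were nearest to Drd2, and Xaf1 (0.061) and Grwd1 (0.065) were among those nearest to Ppp1r1b. With 13536 candidates and 8 libraries, such neighbours are a description of these profiles.

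Other genes of the same neurons were taken from lists by class. Of 8 further direct pathway genes, 1 was called higher (12.5%) and none lower, beside 25.3% and 18.3% of all genes tested. The median log2FC was 0.18 (0.40 with library totals), and with the length trend removed 2 were called higher. The one called was the transcription cofactor gene Eya1, from 0.615 to 1.90 CPM (log2FC 1.62, edgeR padj = 0.00199). The muscarinic receptor gene Chrm4, known to oppose D1 signalling, went from 27.1 to 34.6 CPM (0.35, padj = 0.00969), and the substance P precursor gene Tac1 from 56.7 to 42.1 CPM (-0.43, padj = 0.00245), both under the size threshold. Isl1, a transcription factor gene of this class, was at 1.39 and 1.43 CPM (padj = 0.863). No direct pathway gene of the list had a log2FC as high as that of Drd1.

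Of 5 further indirect pathway genes, 1 was called higher and 1 lower (20% each, beside 25.3% and 18.3% of all genes tested), with a median of 0.21. The median was 0.43 without 24m replicate 1 and 0.44 with library totals, where 2 genes were called higher. The orphan receptor gene Gpr52 rose from 1.88 to 3.72 CPM (log2FC 0.98, edgeR padj = 0.00494). Penk, the enkephalin precursor gene, fell from 538 to 346 CPM (-0.64, padj = 0.000724), but no gene of the list was called lower with library totals or with the length trend removed, where the lowest log2FC was -0.42 and -0.41. Plxdc1 went from 30.5 to 45.1 CPM (0.57, padj = 0.000565), just under the size threshold, and Six3, a homeobox gene, was at 12.4 and 12.2 CPM (padj = 0.907).

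Among 18 genes shared by both classes, 8 were called higher and 2 lower (median 0.24, 0.39 without 24m replicate 1 and 0.47 with library totals, where 1 was lower). These are shares of 44.4% and 11.1%, against 25.3% and 18.3% of all genes tested. Strip2 rose from 2.62 to 18.0 CPM (log2FC 2.78, edgeR padj = 0.000114) and Foxp2, a forkhead transcription factor gene, from 0.498 to 2.34 CPM (2.23, padj = 0.00082). Foxp1, its close relative, fell from 40.1 to 22.4 CPM (-0.84, padj = 0.000181), and Ido1 from 2.52 to 1.47 CPM (-0.78, padj = 0.00063). The list thus held changes in both directions, and 8 of its genes were not called.

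Of 13 genes listed for signalling from dopamine and adenosine receptors through cyclic AMP, 8 were called higher (61.5%) and 2 lower (15.4%). Their median log2FC was 0.95, against a median of 0.00 and shares of 25.3% and 18.3% over all genes. The list reached past cyclic AMP, to subunit genes of protein kinase A and of phosphatases and to Cdk5 and Cdk5r1. Prkacb, a catalytic subunit gene of protein kinase A, rose from 18.3 to 98.0 CPM (log2FC 2.42, edgeR padj = 0.000118). Cdk5r1, the activator of the kinase Cdk5, rose from 18.6 to 71.5 CPM (1.94, padj = 0.000206), whereas Cdk5 itself fell from 236 to 147 CPM (-0.69, padj = 0.0029). Rgs7bp, whose product anchors the Rgs9 protein at membranes, fell from 84.1 to 34.4 CPM (-1.29, padj = 3.83e-05). This median was 1.18 with library totals, 0.76 with the length trend removed and 1.08 without 24m replicate 1. Called lower were 1 gene with library totals, 1 with the length trend removed and 3 without 24m replicate 1, and 8 were called higher in each. These alternatives were chosen after the data had been seen.

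**Figure D4:**
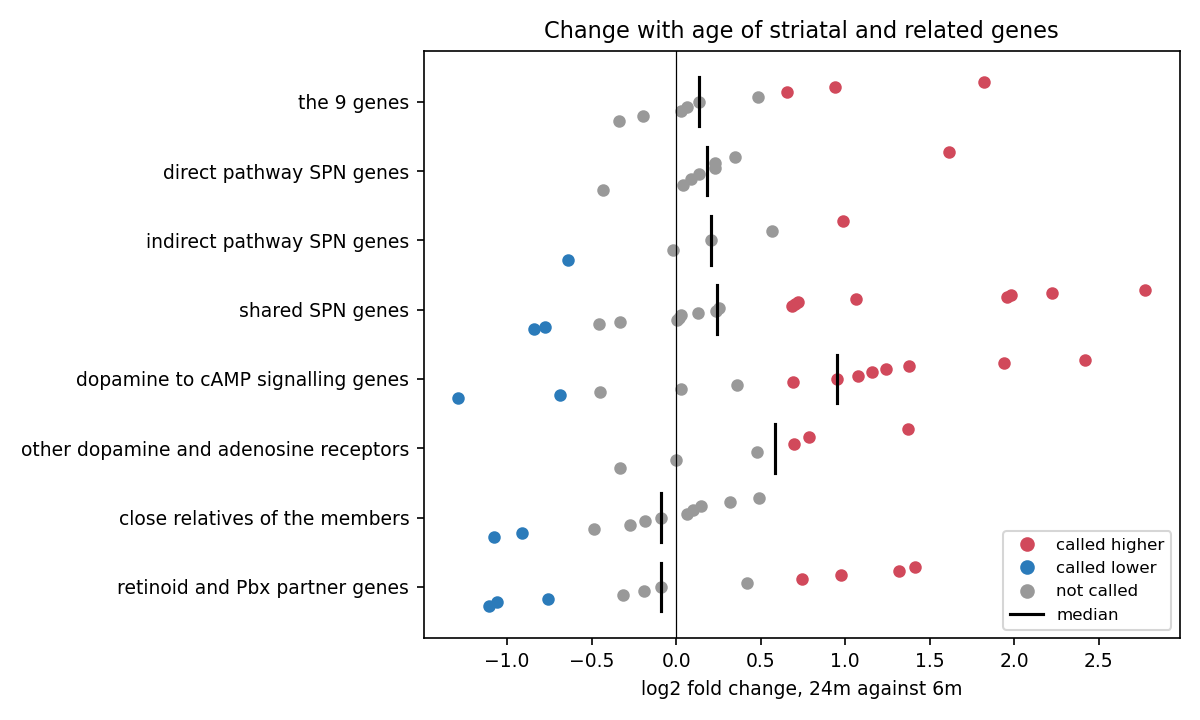
Log2 fold change at 24m against 6m (edgeR) of the 9 genes and of 7 lists of related genes; each point is a gene, red if called higher, blue if called lower and grey if not called, and black lines are medians. Medians run from -0.09 to 0.95, and the list of dopamine to cyclic AMP signalling genes has the highest.

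Of 6 other dopamine and adenosine receptor genes, 3 were called higher and none lower (median 0.59). The shares of 50% and 0% stood beside 25.3% and 18.3% of all genes tested. Under library totals 4 were higher (66.7%, all genes 32.6%), and with the length trend removed 5 (83.3%, all genes 23%). Drd5, the other receptor of the D1 type, rose from 2.15 to 3.72 CPM (log2FC 0.79, edgeR padj = 0.00313) and Adora1, the inhibitory A1 receptor gene, from 48.8 to 79.0 CPM (padj = 0.000437). Drd4 was at 1.97 and 1.56 CPM (-0.33, padj = 0.176) and Adora2b at 3.04 CPM in both ages (padj = 0.99). The third call was Drd3, at 0.142 and 0.377 CPM, with overlapping libraries.

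Close relatives of the 9 genes had a median of -0.09, which was 0.13 with library totals. None of the 11 tested was called higher (1 with library totals) and 2 were lower (3 without 24m replicate 1). The shares of 0% and 18.2% stood beside 25.3% and 18.3% of all genes tested. Ppp1r1c did not pass the count filter. The relative of DARPP-32, Ppp1r1a, fell from 222 to 105 CPM (log2FC -1.08, edgeR padj = 0.000145), and Rgs11, of the same subfamily as Rgs9, from 14.6 to 7.74 CPM (-0.91, padj = 0.000215). Rgs6 and Rgs7, of that subfamily too, had log2FC of 0.49 (padj = 0.00255) and 0.32 (padj = 0.0619). Neither relative of Rarb passed: Rara was at 11.5 and 12 CPM (padj = 0.659) and Rarg at 10.0 and 10.8 CPM (padj = 0.499).

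Partners of Rarb and Meis2 changed in both directions, with 4 of 11 called higher and 3 lower (median -0.09, and 0.12 with library totals). Higher calls made up 36.4% and lower calls 27.3%, beside 25.3% and 18.3% of all genes tested. Rxra, a dimer partner of retinoic acid receptors, rose from 9.09 to 22.6 CPM (log2FC 1.32, edgeR padj = 1.94e-05). The retinoid carrier gene Crabp1 fell from 7.61 to 3.64 CPM (-1.06, edgeR padj = 0.00463). Also called were Cyp26b1, encoding an enzyme that degrades retinoic acid, and Pbx3, both higher, and Crabp2, lower.

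Of 5 marker genes of dopamine neurons, 2 were called higher and 2 lower (none lower with library totals). This was 40% each, beside 25.3% and 18.3% of all genes tested. In RNA of a hemisphere these values cannot be assigned to the neurons that project to the striatum. The transporter genes Slc6a3 and Slc18a2 rose from 7.20 to 11.6 CPM (log2FC 0.68, edgeR padj = 0.00303) and from 1.11 to 2.29 CPM (1.04, padj = 0.0126). Th, the rate-limiting enzyme of dopamine synthesis, fell from 47.6 to 29.0 CPM (-0.71, padj = 0.000993), and Ddc was at 20.9 and 20.6 CPM (padj = 0.931). The other lower call was Pitx3, at 0.672 and 0.419 CPM.

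A hemisphere also holds neurons and glia of other regions, and their marker lists are given beside the background of 25.3% of genes called higher and 18.3% lower. No listed marker had a mean of 0 in either age. Called higher were 6 of 11 cortical and hippocampal glutamatergic genes (summed level 1510 to 1850 CPM at 6m and 1860 to 2240 CPM at 24m), 4 of 7 cerebellar genes (Gabra6, Cbln3, Zic1 and Neurod1; 356 to 613 and 440 to 612 CPM) and 1 of 6 thalamic and midbrain genes (Slc17a6; 120 to 128 and 133 to 146 CPM), with none lower. Among striatal interneuron genes, Nos1, Kit and Slc5a7 were higher and Sst, Npy and Pvalb lower, 3 of 7 each (1190 to 1590 and 611 to 1070 CPM). Astrocyte genes were higher in 6 of 8 (2670 to 3490 and 2770 to 3690 CPM), microglia genes in 2 of 8 (Cx3cr1 and P2ry12; 555 to 619 and 535 to 781 CPM) and oligodendrocyte genes in 1 of 8 (3400 to 4290 and 3710 to 4310 CPM), with none lower, and of endothelial genes 2 of 8 were higher (Flt1 and Kdr) and 2 lower (Cldn5 and Ly6c1; 76.3 to 111 and 45.9 to 70.7 CPM). Aldoc, which was not called, made up most of the astrocyte sum, with 2510 CPM at 6m and 2060 CPM at 24m. The highest 24m sum was that of replicate 1 in the cortical, cerebellar, interneuron, astrocyte, microglia and oligodendrocyte lists. Without 24m replicate 1, the cortical, thalamic and cerebellar lists each held 1 lower call, and 2 oligodendrocyte and 3 endothelial genes were higher. With library totals 5 cerebellar, 3 microglia, 2 oligodendrocyte and 3 endothelial genes were higher, and 2 interneuron genes were lower. With the length trend removed 5 cortical, 4 microglia, 3 oligodendrocyte and 3 endothelial genes were higher, and 1 thalamic, 2 interneuron and 1 endothelial gene were lower. The summed level of the 9 striatal genes was 807 to 922 CPM at 6m and 709 to 919 CPM at 24m. Most of this sum was Ppp1r1b (mean of 533 CPM at 6m and 465 CPM at 24m), and the 919 CPM was that of 24m replicate 1. The part of cell composition or dissection in the changes of Drd1, Rasd2 and Rarb was not tested.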

How the data were processed

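Brain hemispheres of 8 male mice were profiled by directional poly(A) RNA sequencing. Per the submitters' processing notes and the methods of the study, the authors trimmed reads with Trim Galore 0.4.11, aligned them to GRCm39 with HISAT2 2.1.0 and counted them per Ensembl gene with featureCounts; its version, strand setting and use of multimapping reads are not given in the sources used here. The deposited values are raw whole-number counts, with no replicates pooled. Replicates were separate animals; pairs of one age differed by at least 7.5 chi-square per degree of freedom.

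Of 22430 genes, 22281 matched names of the GENCODE annotation of GRCm39, newer than the one used for counting. The 16730 genes that exceeded 5 counts in 4 libraries or more entered edgeR 4.0.16 in R 4.3.3 (quasi-likelihood F test, TMM scaling, a model of age alone). For log2 CPM the prior count was 2. Ratios were tested by exact permutation. Members and lists were chosen with earlier results of these data known. The genes named were the 9 members and, per list of related genes, the 2 highest and 2 lowest log2FC with a mean of at least 1 CPM; marker lists are given as counts. Some genes that this rule names are not reported here. Drd3, Pitx3, Cyp26b1, Pbx3, Crabp2, Rara, Rarg and the called marker genes were named after their values were seen. In simulated data of this comparison over 16730 genes, 200 genes were given a log2 change of 1 in either direction, of which 67.5% were called, as were 3 unchanged genes. Alternatives were DESeq2 1.42.0, limma-voom (limma 3.58.1), other scalings, filters, a replicate block, single libraries left out, and smoothed trends over exonic length or GC content removed; these trends used genes with a match.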

Additional observations from a re-analysis of the deposited data

Results flagged for a closer look

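One value stood apart from the others of its age by Dixon's ratio, out of 36 groups of 4 libraries examined, for which chance gives about 1 in 20. Gpr6 in 24m replicate 3 had 15.8 CPM, against 13.5 to 13.8 CPM in the other 24m libraries. The highest 6m library of this gene was at 15.3 CPM.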

How the results depend on the processing

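Drd1, Rasd2 and Rarb were called higher under all 20 alternatives run for each, with log2FC of 1.49 to 2.05, 0.59 to 0.88 and 0.59 to 1.17 and edgeR, DESeq2 or limma padj of at most 0.00234, 0.00297 and 0.0161. Between 3 and 4 members and 6286 to 10478 genes were called, the highest without the size threshold, and the fourth member was Meis2 without 24m replicate 1, Gpr6 with the length trend removed and Rgs9, lower, without the size threshold; with library totals 75.7% of called genes were higher and after quantile normalization 47.9%, against 58.1%. Of the 6 uncalled members, Rgs9 and Meis2 kept their sign in all 20 alternatives, and the other 4 changed it in some. Ppp1r1b was at 0.012 with library totals, 0.14 in DESeq2 on quantile-normalized counts and 0.013 with the GC trend removed. With the length trend removed Ppp1r1b was at 0.059, or at 0.048 with the replicate block added to that. The replicate block alone left it at -0.22. Gpr6 was at -0.11 on quantile-normalized counts and Adora2a at -0.055 to 0.113 and Drd2 at -0.003 to 0.152 when single libraries were left out. With single libraries left out the difference of log2 ratios was 1.53 to 1.94 for Drd1 to Drd2 and, against Ppp1r1b, 1.74 to 2.39 for Drd1, 0.21 to 0.46 for Drd2, 0.21 to 0.28 for Adora2a, 0.77 to 1.06 for Rasd2, 0.25 to 0.52 for Gpr6, 0.87 to 1.45 for Rarb, 0.32 (without 24m replicate 4) to 1.05 (without 24m replicate 1) for Meis2 and -0.21 to -0.02 for Rgs9. The causes were not tested. Pairing by replicate number left the Drd1 to Drd2 difference at 1.71 (exact sign-flip p = 0.125, the smallest that 4 pairs allow). Libraries of the same number did not deviate together (correlations across genes of 0.27, 0.14, 0.08 and -0.35), so the numbers were taken as names, and the replicate block called 7242 genes and the same number of members, 3. The members with the fewest reads were Drd1, at 151 to 255 counts per 6m library, and Rarb, at 213 to 351.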
